A study of Homo sapiens with 4 samples.

Results

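The nuclear genes of the mitochondrial protein import machinery were examined in CAL27, a cell line established from a human squamous carcinoma of the tongue. The members are the genes whose names start with TIMM or TOMM followed by a digit, without names ending in P and digits. This gave 24 of the 29437 listed genes, and 3 names with such an ending were left out. The study has 4 libraries of polyadenylated RNA from CAL27, 2 labelled CCL20-overexpression and 2 labelled negative control. The overexpression line was made by lentiviral delivery of CCL20, a secreted chemokine, and its cells were harvested after 48 hours. The question put to the members is whether their RNA levels differed with CCL20 overexpression. The labels do not say what the control cells carried, what promoter drove CCL20, whether the line is 1 clone, nor whether replicates came from separate cultures, so p-values measure only the spread between these libraries, which may be technical.

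Almost all mitochondrial proteins are made in the cytosol and have to be imported. The TOM complex of the outer membrane is the entry gate: TOMM20, TOMM22 and TOMM70 are its receptors, TOMM40 is the channel, and small subunits such as TOMM5 and TOMM7 shape its assembly. In the space between the membranes, the small TIM proteins chaperone hydrophobic precursors. The TIM22 complex inserts carrier proteins into the inner membrane, and the TIM23 complex passes precursors with a cleavable presequence into the matrix, where an import motor pulls them in.

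Total counts lay between 13681862 and 17860695 per library. Averaged over counted reads, the exonic length of the gene hit was 5313 and 5013 nt in the CCL20-overexpression libraries and 6226 and 6130 nt in the negative control libraries, so reads came from shorter genes in the overexpression libraries. The chi-square of counts per gene between replicates was 42.49 in the overexpression pair and 7.09 in the control pair, and no library was a duplicate. CCL20 itself had 15.2 and 11.3 FPKM with overexpression, against 8.62 and 7.10 FPKM in the control (1.94-fold, edgeR adjusted p = 0.0143). With a correction for mRNA length its log2 fold change was 0.06 (edgeR adjusted p = 0.916). Summed markers of squamous keratinocytes lay between 792 and 1117 FPKM in the overexpression libraries and between 810.3 and 894.5 FPKM in the controls. KRT5 led these markers at a mean of 447 FPKM over all libraries, and KRT14 was low at 0.921 FPKM. Of the 7 tested, KRT17 and SFN were higher, and TP63 and DSG3 were lower. TP63, the transcription factor of squamous cells, had 23.0 and 14.3 FPKM with overexpression, against 35.2 and 31.9 FPKM in the control. The part of this shift in the members' changes was not tested. Summed fibroblast, leukocyte and endothelial markers stayed under 9 FPKM in each library. The highest of each list were COL1A1, CD14 and CDH5, at means of 2.72, 1.28 and 6.75 FPKM. PTPRC, the defining leukocyte marker, averaged 0.00153 FPKM.

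Of the 22 members with a mean FPKM of at least 1, 12 rose with CCL20 overexpression and 0 fell (edgeR's quasi-likelihood test, Benjamini-Hochberg adjusted over 12168 genes), against 16.5% of all tested genes higher and 15.7% lower. The rises lay between 1.62-fold for TIMM17A and 2.89-fold for TOMM7, with edgeR adjusted p between 0.00477 and 0.0276. The median log2 fold change was 0.71 over the tested members and 0.0019 over all tested genes. A fold change here is on TMM-scaled counts, while FPKM is scaled by total count, so the ratio of FPKM values is smaller. A bulk library cannot tell fewer cells expressing a gene from less RNA per cell. With a correction for mRNA length, the calls of TIMM13 and TIMM22 stayed and those of the other 10 ended, TIMM23B was lower, and the median was 0.23. The exonic length correction instead left TOMM7, TIMM8B, TIMM10, TIMM13 and TIMM50 called, against 9.95% of all tested genes higher. Only TIMM13 was called with both corrections. With the mRNA length correction 3.63% of the 10571 coding genes tested were higher and 3.19% lower. TPM scaling put the median of all genes at -0.49. Then 5 members (TOMM7, TIMM8B, TIMM9, TIMM10 and TIMM13) were higher, against 4.11% of genes, and TIMM23B was lower, against 37.1%. Without negative control replicate 1 the median log2 fold change of the tested members was 0.68, and without negative control replicate 2 it was 0.77. Without CCL20-overexpression replicate 1 it was 0.89, and without CCL20-overexpression replicate 2 it was 0.54. In each such fit the spread comes from the remaining pair of the other group, so numbers of calls are not read as results there.

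**Figure D1:**
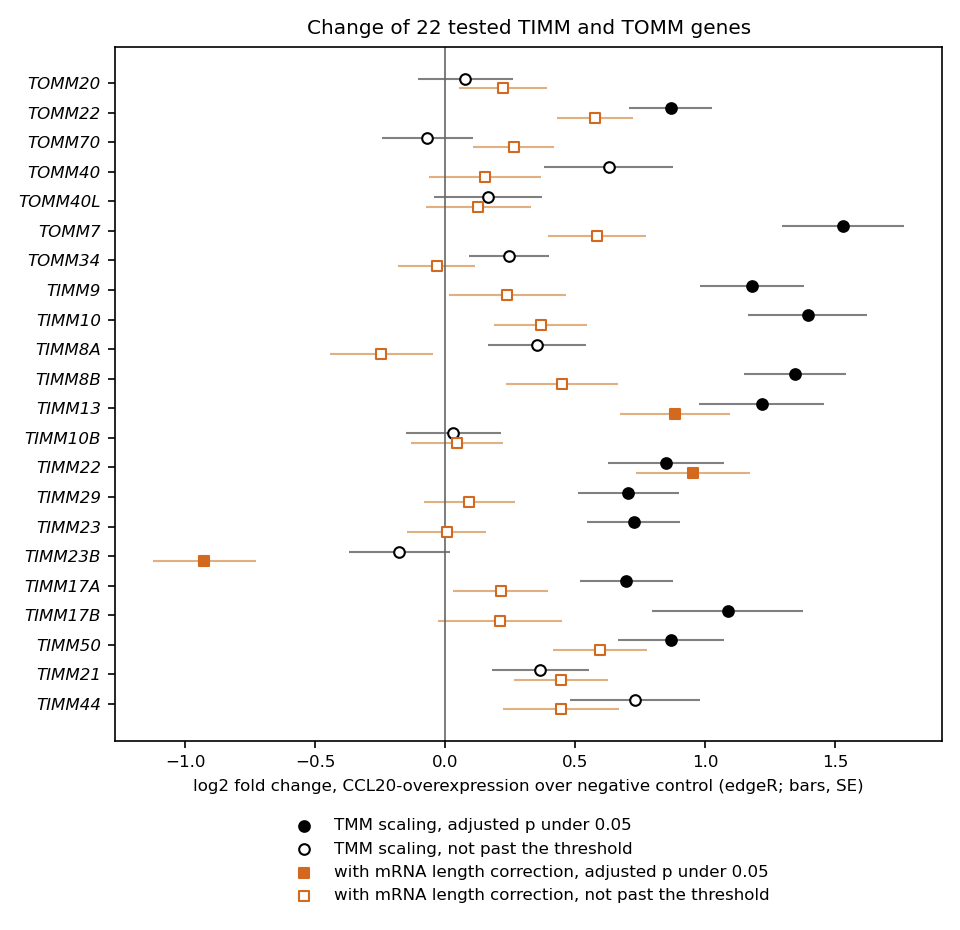
The log2 fold change (x axis, CCL20-overexpression over negative control, with its SE) of the 22 tested TIMM and TOMM genes is shown with TMM scaling (circles) and with the mRNA length correction (squares), filled where the adjusted p is under 0.05. With TMM scaling 12 genes are filled and all are above 0. With the correction TIMM13 and TIMM22 are filled above 0 and TIMM23B below 0.

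On FPKM, both overexpression libraries lay above both controls for 14 of the 22 members, against 25.8% of all tested genes. They lay below both controls for 3 members, TOMM70, TIMM10B and TIMM23B, against 46.9% of all tested genes. The overexpression replicates differed more than the controls: the median absolute log2 difference between replicates over the members was 0.34 in the overexpression pair and 0.10 in the control pair. The same values over all tested genes were 0.34 and 0.13.

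**Figure D2:**
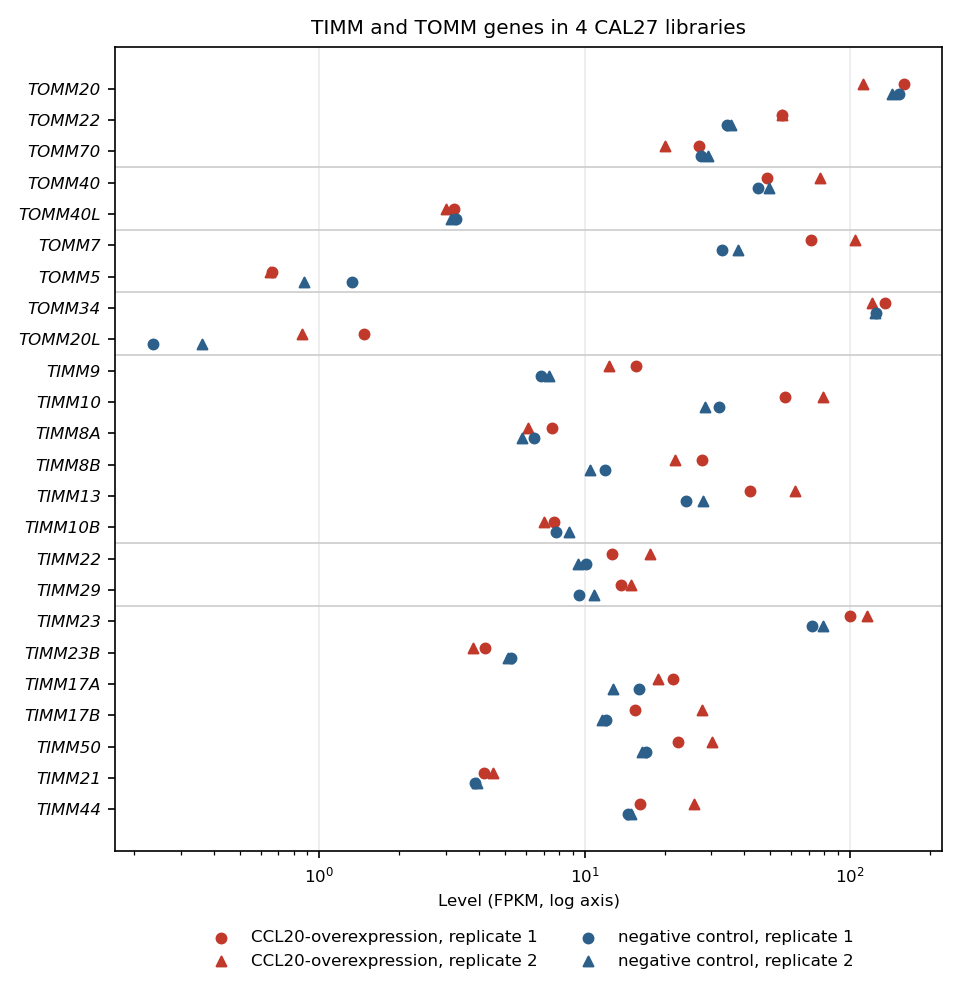
Levels in FPKM (x axis, log scale) of all 24 TIMM and TOMM genes are shown for each library, with CCL20-overexpression above negative control in each row and grey lines between functional groups. TOMM20, TOMM34 and TIMM23 have the highest levels, at means of 142, 126 and 91.8 FPKM over the libraries, and TOMM5 and TOMM20L are near 1 FPKM.

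After TOMM7, the largest rises were in small TIM chaperones, of which 4 of 6 rose against 16.5% of all tested genes, with a median log2 fold change of 1.20 over the 6. With the mRNA length correction 1 of the 6 was higher and the median was 0.30. TIMM9, TIMM10 and TIMM8B have mRNAs under 1000 nt, a length at which 78.7% of coding genes rose with a median of 1.09. The small TIM proteins are hexamer-forming proteins that share a pair of CX3C motifs, in which cysteines spaced by 3 residues form the disulfide bonds that fold the protein. The coding stretch between the outer cysteines of the motif pair is shown because it identifies these short genes as a family and shows how far TIMM8A and TIMM8B, of which TIMM8B was called, resemble each other. The stretches are from the principal transcripts of GENCODE 29, 5′ to 3′, with the cysteine codons of the motifs in capitals.
TIMM9: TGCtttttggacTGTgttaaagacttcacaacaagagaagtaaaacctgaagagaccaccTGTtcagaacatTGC
TIMM10: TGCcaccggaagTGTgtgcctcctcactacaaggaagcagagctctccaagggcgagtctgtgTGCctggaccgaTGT
TIMM8A: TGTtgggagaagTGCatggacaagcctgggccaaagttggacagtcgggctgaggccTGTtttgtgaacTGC
TIMM8B: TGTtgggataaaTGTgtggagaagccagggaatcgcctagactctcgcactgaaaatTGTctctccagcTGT
TIMM13: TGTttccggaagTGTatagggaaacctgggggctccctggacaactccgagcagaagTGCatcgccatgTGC
TIMM10B: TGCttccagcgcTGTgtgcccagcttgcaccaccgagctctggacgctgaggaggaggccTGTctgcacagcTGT
The stretches ran over 72 to 78 nt, with 14 to 16 codons between the motifs. Each coding sequence held 2 CX3C matches in its reading frame, and the proteins were 89 to 103 codons long.

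TIMM10 (ENSG00000134809; GRCh38 chromosome 11, 57528463 to 57530803, minus strand) forms the main chaperone hexamer with TIMM9. TIMM10 had 57.1 and 79.3 FPKM with CCL20 overexpression, against 32.0 and 28.3 FPKM in the negative control. The groups did not overlap, and the rise was 2.63-fold (log2 ratio 1.39 ± 0.23 SE, edgeR adjusted p = 0.00572). TIMM9 (ENSG00000100575; chromosome 14, 58408494 to 58427614, minus strand) had 15.6 and 12.3 FPKM with overexpression, against 6.82 and 7.32 FPKM in the control. TIMM9 also had no overlap between groups, and it rose 2.26-fold (log2 ratio 1.18 ± 0.20 SE, edgeR adjusted p = 0.00621). The partners were thus both higher in each overexpression library, TIMM10 most in replicate 2 and TIMM9 most in replicate 1. With the mRNA length correction, neither passed: TIMM10 was at 0.37 (edgeR adjusted p = 0.257) and TIMM9 at 0.24 (edgeR adjusted p = 0.569).

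TIMM13 and the TIMM8 proteins form a second hexamer that carries a narrower set of precursors, and mutations in TIMM8A cause a deafness and dystonia syndrome. TIMM13 (ENSG00000099800; chromosome 19, 2425624 to 2427894, minus strand) had 41.9 and 62.1 FPKM with overexpression, against 24.01 and 28.0 FPKM in the control. It rose 2.32-fold (log2 ratio 1.22 ± 0.24 SE, edgeR adjusted p = 0.00916), and it stayed called with the mRNA length correction (0.88 ± 0.21 SE, edgeR adjusted p = 0.0472). With each library left out in turn, its log2 fold change lay between 0.84 and 1.51. Its mRNA of 1973 nt is the longest among the 4 small TIM genes that rose. TIMM8B (ENSG00000150779; chromosome 11, 112084800 to 112086798, minus strand) had 27.6 and 21.9 FPKM with overexpression, against 11.9 and 10.5 FPKM in the control. TIMM8B rose 2.54-fold (log2 ratio 1.35 ± 0.20 SE, edgeR adjusted p = 0.00477), and its corrected log2 fold change was 0.45 (edgeR adjusted p = 0.257). TIMM8A (ENSG00000126953; chromosome X, 101345659 to 101349196, minus strand) had 7.51 and 6.12 FPKM with overexpression, against 6.47 and 5.79 FPKM in the control. The TIMM8A values overlapped between groups and did not pass the test (log2 ratio 0.35 ± 0.19 SE, edgeR adjusted p = 0.175; -0.24 with the length correction and -0.13 on the TPM scale). With each library left out in turn, the TIMM8A log2 fold change lay between 0.25 and 0.45. TIMM10B, the small TIM protein that sits on the TIM22 complex, had 7.67 and 6.998 FPKM with overexpression, against 7.76 and 8.75 FPKM in the control (edgeR log2 fold change 0.03, adjusted p = 0.907). Its log2 fold change was -0.17 with library totals alone and -0.46 on the TPM scale, without a call in either. The annotated coding gene AC084337.2 overlaps TIMM10B on the same strand over 3195 of its 3233 nt. How reads in the shared part were counted is not given.

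Because TIMM8A and TIMM8B are paralogues, their balance was read within each library, which does not depend on depth. TIMM8A made up 21.4 and 21.9% of the summed FPKM of both genes with CCL20 overexpression, against 35.2 and 35.6% in the negative control. The mean share was 21.6 ± 0.328% with overexpression and 35.4 ± 0.307% in the control (SD, n = 2 each), a difference of -13.8 percentage points. The groups were apart by far more than the replicates, and the exact two-sided permutation p was 0.333, the smallest that 2 libraries against 2 allow. The mRNA of TIMM8A is 1429 nt and that of TIMM8B 805 nt, and the part of this length difference in the shift was not tested. The coding sequences are 57.0% identical over 272 aligned bases.

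TIMM17A and TIMM17B are alternative subunits of the TIM23 channel. TIMM17A made up 58.3 and 40.5% of their summed FPKM with overexpression, against 57.0 and 52.4% in the control (exact two-sided permutation p = 1). The shares of the groups overlapped, and overexpression replicate 2 was the lowest of the 4. TOMM40 made up 93.8 and 96.3% of the sum of TOMM40 and its paralogue TOMM40L with overexpression, against 93.2 and 94.1% in the control (exact two-sided permutation p = 0.667).

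**Figure D3:**
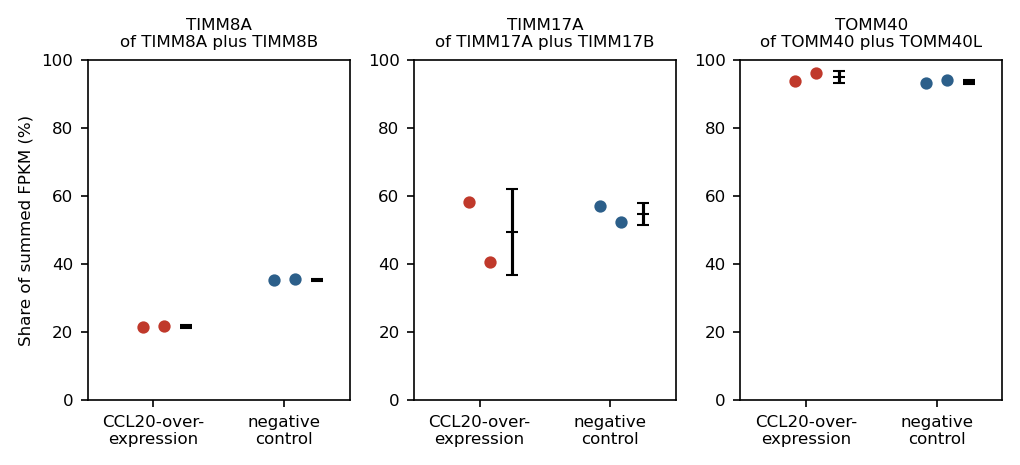
Each panel gives the share of 1 paralogue in the summed FPKM of a pair (y axis, percent) by library, with the mean and SD of each group beside the points. The TIMM8A share is near 21 to 22% in both overexpression libraries and near 35 to 36% in both controls, while the shares of the other pairs overlap between groups.

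Among the 7 tested TOMM genes, TOMM7 and TOMM22 rose, against 16.5% of all tested genes, and the other 5 did not pass the test. TOMM7 (ENSG00000196683; chromosome 7, 22812628 to 22822852, minus strand), a small subunit that modulates TOM assembly and helps to stabilise the kinase PINK1 on damaged mitochondria, had 71.6 and 105 FPKM with overexpression, against 33.1 and 37.9 FPKM in the control. This was the largest rise of any member (log2 ratio 1.53 ± 0.24 SE, edgeR adjusted p = 0.00496), with replicate 2 higher than replicate 1 in both groups. Corrected for mRNA length, TOMM7 missed the threshold (0.58, edgeR adjusted p = 0.108), and its mRNA is 778 nt. TOMM22 (ENSG00000100216; chromosome 22, 38681948 to 38685421, plus strand), the central receptor and organiser of the complex, had 55.5 and 55.2 FPKM with overexpression, against 34.4 and 35.7 FPKM in the control. Its replicates were close and its groups clearly apart (1.82-fold, log2 ratio 0.87 ± 0.16 SE, edgeR adjusted p = 0.00769). With the length correction it was 0.58 with an SE of 0.15, just outside the threshold (edgeR adjusted p = 0.0581).

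TOMM20, the receptor for presequences, had the highest level of all members. It had 160.4 and 112 FPKM with overexpression, against 153 and 143 FPKM in the control, so the overexpression replicates lay on either side of both controls. Its log2 fold change was 0.08 (SE 0.18; edgeR adjusted p = 0.761), and the sign turned with library totals alone (-0.12), on the TPM scale (-0.40) and without overexpression replicate 1 (-0.15), without a call. Without overexpression replicate 2 the TOMM20 log2 fold change was 0.27. TOMM70, the receptor for carrier precursors and an adaptor for cytosolic chaperones, had 26.9 and 20.2 FPKM with overexpression, against 27.4 and 29.1 FPKM in the control. Its log2 fold change was -0.07 (SE 0.17; edgeR adjusted p = 0.781) and 0.26 with the length correction (edgeR adjusted p = 0.358). These receptors have the longest mRNAs of the members, 3387 nt for TOMM20 and 4409 nt for TOMM70.

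TOMM40, the channel, had 48.6 and 77.1 FPKM with overexpression, against 45.0 and 49.6 FPKM in the control. Overexpression replicate 1 lay between the controls, and the difference was not past the threshold (log2 ratio 0.63 ± 0.25 SE, edgeR adjusted p = 0.0842), while DESeq2 called it (DESeq2 adjusted p = 0.0391). TOMM40L had 3.23 and 2.99 FPKM with overexpression, against 3.27 and 3.13 FPKM in the control (edgeR adjusted p = 0.562). TOMM34, a cytosolic co-chaperone of precursors, had 136 and 121 FPKM with overexpression, against 125 and 124 FPKM in the control (edgeR log2 fold change 0.24, adjusted p = 0.241). The annotated gene of TOMM34 overlaps PABPC1L on the opposite strand over 16906 nt, and with the strand setting unknown their reads cannot be told apart with certainty.

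Of the TIM22 complex, TIMM22 and TIMM29 rose, against 16.5% of all tested genes, while TIMM10B, described above, and AGK did not pass the test. AGK, a lipid kinase that is also a TIM22 subunit and is counted among the partners below, had 3.34 and 2.54 FPKM with overexpression, against 4.91 and 4.46 FPKM in the control (edgeR adjusted p = 0.0806). On the TPM scale AGK was called lower (-0.96, edgeR adjusted p = 0.0163). TIMM22 (ENSG00000177370; chromosome 17, 997117 to 1003671, plus strand), the channel that inserts carrier proteins, had 12.6 and 17.7 FPKM with overexpression, against 10.1 and 9.43 FPKM in the control. The groups did not overlap (1.80-fold, log2 ratio 0.85 ± 0.22 SE, edgeR adjusted p = 0.0240). TIMM22 has an mRNA of 3194 nt, and its log2 fold change was 0.95 with the length correction (SE 0.22; edgeR adjusted p = 0.0417), the largest value of any member with that correction. Its call ended with the exonic length correction (0.53, edgeR adjusted p = 0.114) and on the TPM scale (0.34, edgeR adjusted p = 0.229). The call also ended with limma at either pseudocount (limma adjusted p = 0.0634 and 0.0683). With each library left out in turn, the TIMM22 log2 fold change lay between 0.53 and 1.11. TIMM29, a subunit that joins TIM22 to the TOM complex, had 13.7 and 14.99 FPKM with overexpression, against 9.49 and 10.8 FPKM in the control. It rose 1.63-fold (edgeR adjusted p = 0.0276), with a corrected log2 fold change of 0.09 (edgeR adjusted p = 0.791).

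In the TIM23 complex, TIMM23, TIMM17A, TIMM17B and TIMM50 rose, against 16.5% of all tested genes. TIMM21, TIMM44 and TIMM23B did not pass the test. TIMM23 (ENSG00000265354; chromosome 10, 45972449 to 46003734, plus strand), the channel, had 100.5 and 115 FPKM with overexpression, against 72.1 and 79.0 FPKM in the control (1.65-fold, edgeR adjusted p = 0.0189). Its corrected log2 fold change was 0.01 (edgeR adjusted p = 0.987). TIMM23B (ENSG00000204152; chromosome 10, 49942033 to 49974850, plus strand), a near copy of TIMM23, had 4.20 and 3.80 FPKM with overexpression, against 5.26 and 5.15 FPKM in the control. TIMM23B was the member with the lowest log2 fold change, at -0.18 (SE 0.19; edgeR adjusted p = 0.499), and with the length correction it was -0.93 (SE 0.20; edgeR adjusted p = 0.0322). The coding sequences of these genes align without a gap over the first 514 bases, where 10 differ. The other 22 differences are in the 3′ part, where the alignment is broken by gaps. Bases 9 to 68 are shown because they show how little separates the copies, with the differing bases in capitals. No gap-free stretch of 60 bases held more differences.
TIMM23: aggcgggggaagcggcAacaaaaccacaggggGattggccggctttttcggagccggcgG
TIMM23B: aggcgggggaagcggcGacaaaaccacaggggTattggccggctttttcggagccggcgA
Only 3 of these 60 bases differ, so how reads were split between TIMM23 and TIMM23B is uncertain, and both values carry that limit. TIMM23B also overlaps PARG on the opposite strand over 28171 nt.

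TIMM50, the receptor that hands presequences to the channel, had 22.4 and 30.1 FPKM with overexpression, against 17.0 and 16.4 FPKM in the control (1.82-fold, edgeR adjusted p = 0.0167; corrected log2 fold change 0.59, edgeR adjusted p = 0.0935). With the correction for exonic length it stayed called (log2 fold change 1.16, edgeR adjusted p = 0.0149). The union of its exons is 6911 nt and its principal mRNA 2092 nt. TIMM17B had 15.4 and 27.7 FPKM with overexpression, against 12.1 and 11.6 FPKM in the control (2.12-fold, edgeR adjusted p = 0.0250). Its overexpression replicates differed 1.79-fold, the widest replicate ratio of any member. TIMM17A had 21.6 and 18.8 FPKM with overexpression, against 15.98 and 12.8 FPKM in the control (1.62-fold, edgeR adjusted p = 0.0219). TIMM17A, TIMM17B and TIMM50 thus had no overlap between groups. TIMM44, which anchors the import motor, had 16.2 and 25.8 FPKM with overexpression, against 14.5 and 14.9 FPKM in the control (log2 ratio 0.73 ± 0.25 SE, edgeR adjusted p = 0.0553), and DESeq2 called it (DESeq2 adjusted p = 0.0181). TIMM21, which couples the complex to respiratory chain assembly, had 4.19 and 4.51 FPKM with overexpression, against 3.86 and 3.93 FPKM in the control (edgeR log2 fold change 0.37, adjusted p = 0.161).

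The members' changes were read against mRNA length, since direction followed length over all genes. All 5 tested members with an mRNA under 1000 nt, TOMM7, TIMM9, TIMM10, TIMM8B and TIMM17B, rose, as did 78.7% of the 582 tested coding genes of that length. Their median log2 fold change was 1.35, against 1.09 for those coding genes. Of the 7 members of at least 1000 and under 2000 nt, 4 rose, against 43.9% of coding genes, with medians of 0.70 and 0.58. Of the 10 members of 2000 nt or more, TOMM22, TIMM22 and TIMM50 rose, against 5.22% of coding genes, and none fell, against 21.7%. The medians there were 0.31 for the members and -0.20 for the coding genes. Spearman correlations between change and mRNA length were -0.59 over the 22 members and -0.73 over 10571 coding genes. These are across genes that share the same libraries and serve as a description only. The part of mRNA length or library composition in the members' changes was not tested beyond the length correction above.

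**Figure D4:**
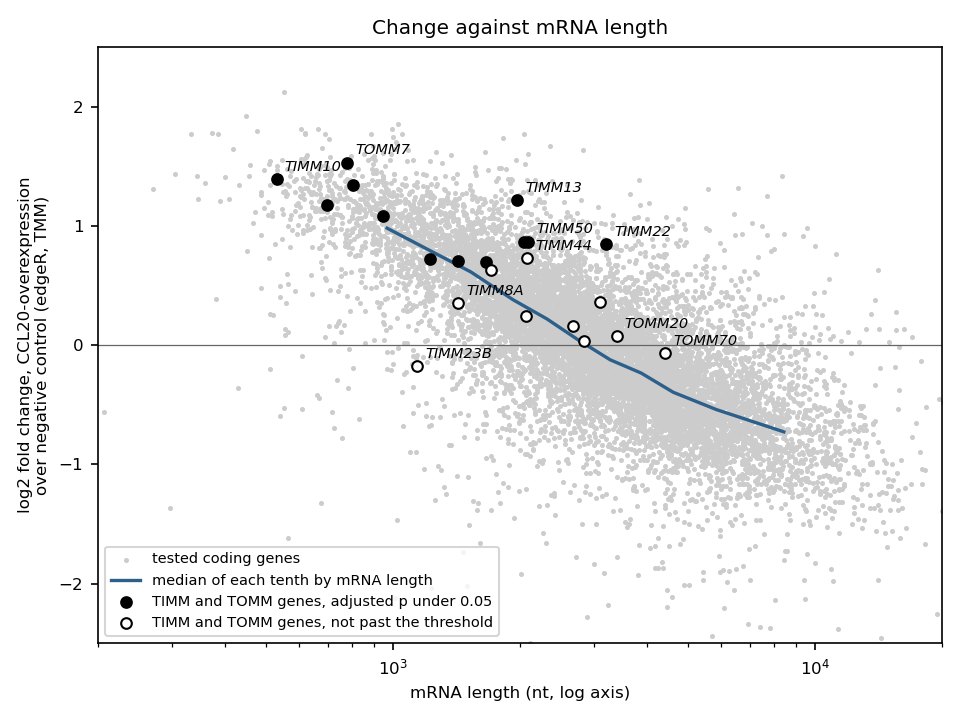
The log2 fold change (y axis, CCL20-overexpression over negative control) is plotted against mRNA length (x axis, log scale) for 10548 tested coding genes in grey, with 23 outside the axes, and for the 22 members as circles, filled where the adjusted p is under 0.05. The line of medians over bins of length runs between 0.98 for the shortest and -0.73 for the longest mRNAs. Members above it include the called TIMM13, TIMM22, TIMM50 and TOMM22 and the uncalled TIMM44, TIMM21, TOMM20 and TOMM70. Members below it include TIMM23B and TIMM8A.

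Promoter windows of members were compared because many genes of mitochondrial biogenesis are targets of NRF1 and of ETS factors such as GABP. The windows run over 250 bases before and 50 after the annotated start, from RefSeq on GRCh38.p14. An ETS core, CCGGAAG on either strand, was in 10 of the 22 windows found, against 17.9% of 12277 windows of tested coding genes, where a gene can have several windows. It was in 5 of the 11 windows of members that rose and in 5 of the 10 of tested members that did not pass. The NRF1 core, searched on either strand, was in 5 of the 22, against 10.6% of the tested coding windows, with 2 in members that rose and 3 in tested members that did not pass. CCAAT on either strand was in 8 of the 22, against 35%, and TATAAA in 0 of the 22, against 5.69%. The windows of TOMM7 (chr7:22822800-22823099, minus strand), TIMM10 (chr11:57530705-57531004, minus strand) and TOMM70 (chr3:100401040-100401339, minus strand) are shown, as the member with the largest rise and a pair that each hold the ETS core at 2 places while only TIMM10 rose. Matches to the ETS and NRF1 cores are in capitals.
TOMM7: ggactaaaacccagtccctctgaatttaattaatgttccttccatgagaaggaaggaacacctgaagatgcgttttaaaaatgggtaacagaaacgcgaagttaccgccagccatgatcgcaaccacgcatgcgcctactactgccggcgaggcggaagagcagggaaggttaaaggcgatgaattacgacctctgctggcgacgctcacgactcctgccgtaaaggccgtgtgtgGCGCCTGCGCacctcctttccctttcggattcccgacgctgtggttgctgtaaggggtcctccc
TIMM10: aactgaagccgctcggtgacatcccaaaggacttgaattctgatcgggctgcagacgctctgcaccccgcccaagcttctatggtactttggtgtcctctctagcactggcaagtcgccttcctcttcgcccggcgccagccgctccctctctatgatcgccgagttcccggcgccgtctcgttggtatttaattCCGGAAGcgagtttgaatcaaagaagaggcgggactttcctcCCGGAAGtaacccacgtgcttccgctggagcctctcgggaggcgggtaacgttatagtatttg
TOMM70: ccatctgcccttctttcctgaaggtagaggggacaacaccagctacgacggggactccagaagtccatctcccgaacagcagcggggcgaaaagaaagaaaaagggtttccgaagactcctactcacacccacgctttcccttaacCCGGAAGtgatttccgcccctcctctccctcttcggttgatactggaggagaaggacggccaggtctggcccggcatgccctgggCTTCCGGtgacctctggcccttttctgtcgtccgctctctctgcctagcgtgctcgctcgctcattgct
In TIMM10 the ETS cores start 55 and 13 bases before the annotated start, and in TOMM70 they start 104 and 19 bases before it. In TOMM7 the NRF1 core starts 14 bases before it. A match describes these letters only.

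Genes that work with these complexes were read as a list of 28 partners, of which 27 were tested, and 10 rose and 0 fell, against 16.5% of all tested genes higher and 15.7% lower. With library totals alone 4 were higher and 2 lower, on the TPM scale 2 were higher and 4 lower, and with the mRNA length correction 2 were higher and 1 lower. Of all tested genes, 10.5% were higher and 2963 of 12168 lower with library totals, and 4.11% higher and 37.1% lower on the TPM scale. The mRNA length correction gave 3.63% of coding genes higher and 3.19% lower. Their median log2 fold change in the main test was 0.41, and the median length of their mRNAs was 2296 nt. ROMO1, the human counterpart of a yeast TIM23 subunit, had 206 and 271 FPKM with overexpression, against 90.4 and 104 FPKM in the control (2.85-fold, edgeR adjusted p = 0.00442). HSPE1, the co-chaperonin of HSPD1, had 21.1 and 21.3 FPKM with overexpression, against 7.73 and 10.5 FPKM in the control (2.68-fold, edgeR adjusted p = 0.00477). DNAJC19 of the import motor rose 1.93-fold (edgeR adjusted p = 0.00668), and SAMM50, the channel of the outer membrane sorting complex, rose 1.83-fold (edgeR adjusted p = 0.0128). None of these 4 passed with the length correction (edgeR adjusted p between 0.127 and 0.228). HSPD1, the matrix chaperonin, had 339 and 238 FPKM with overexpression, against 263 and 248 FPKM in the control (edgeR adjusted p = 0.140). With the correction DNAJC15 and XPNPEP3 were higher and PAM16 was lower (edgeR adjusted p = 0.00975, 0.0478 and 0.0306), 3 genes that, with AGK, were chosen after their values were seen. With each library left out in turn, the log2 fold change lay between 1.24 and 1.73 for ROMO1 and between 1.22 and 1.67 for HSPE1. It lay between 0.92 and 0.98 for DNAJC19 and between 0.65 and 1.06 for SAMM50.

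TOMM5 and TOMM20L did not reach a mean of 1 FPKM. TOMM5 (ENSG00000175768; chromosome 9, 37582646 to 37592642, minus strand), a small TOM subunit, had 37 and 40 counts with overexpression, against 66 and 57 counts in the control. Without the filter its log2 fold change was -0.48 (edgeR adjusted p = 0.466). The annotated genes AL513165.2 and AL138752.2 overlap TOMM5 on the same strand over 9824 and 4230 of its 9997 nt, and how reads in the shared part were counted is not given. TOMM20L (ENSG00000196860; chromosome 14, 58395916 to 58408701, plus strand), a relative of TOMM20, had 14 and 9 counts with overexpression, against 2 and 4 counts in the control (edgeR log2 fold change 2.13, adjusted p = 0.137 without the filter). Its 3′ end overlaps the 3′ end of TIMM9, on the opposite strand, over 208 nt. In all, 16 of the 24 members overlap another annotated gene, and 11 of the 24 overlap a coding gene on the opposite strand. Among those 11 are 5 of the 12 that rose, TIMM9, TIMM8B, TIMM13, TIMM22 and TIMM17B. Overlap was taken over whole gene spans, introns included. Names of processed copies are listed in GENCODE 29 for TOMM22, TOMM20, TIMM9 and TIMM8B (6, 4, 3 and 2 copies) and for TIMM8A and TIMM17B (1 each), so reads of these genes may be shared with copies.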

How the data were processed

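CAL27 cells were harvested after 48 hours, and 1.5 µg of RNA went into each library, per the labels' protocols. Tools named in the submitters' processing notes are HISAT2 (no version), HTSeq 0.13.5 and the GRCh38 build. The annotation, trimming, counting mode and strand handling are not stated in these sources. The authors deposited whole read counts for each gene, unscaled, and FPKM, which are those counts over gene length in kilobases and scaled by the library's total count. Gene lengths implied by FPKM were whole within 0.001 nt for all 29437 genes. Identifiers matched GENCODE 29, which gave positions, gene types and mRNA lengths (median over a gene's principal transcripts).

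Differences were tested two-sided with edgeR 4.0.16 in R 4.3.3, by quasi-likelihood with TMM scaling, over the 12168 genes averaging 1 FPKM or more, with Benjamini-Hochberg adjustment over all of them and a threshold of 0.05. Each SE was derived as the change divided by the root of its F statistic. Alternatives were DESeq2 1.42.0, limma 3.58.1, other filters, pseudocounts and scalings, a replicate block, and each library left out in turn. For the mRNA length correction, a natural spline of 5 degrees of freedom over 10571 coding genes was fitted to each library's log2 CPM minus the mean of the gene, and used as an offset. The TPM scale was added after the data had been seen. On simulated data with 10571 genes and no length trend, 91% of 2-fold and 100% of 4-fold changes were recovered, with 2.6% of calls false. With a simulated length trend, 91.7% of uncorrected and 3.6% of corrected calls were false. That trend was a straight slope on log2 mRNA length, the same in both overexpression libraries, and calls due to it were counted as false by design. All simulated libraries had equal dispersion, while the real overexpression replicates differed more than the controls. These shares therefore do not measure the error of the correction in the data.

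Samples were grouped and numbered as their titles give. The members and lists were chosen with earlier results of these data known. Every member is named. Among partners, the text names the 4 called genes with the largest test statistic, the 2 with the highest mean FPKM, and others marked as chosen after their values were seen. Promoter windows are from RefSeq on GRCh38.p14, where 22 of 24 members matched by symbol. Python 3.11.15, pandas 2.3.3, scipy 1.17.1 and matplotlib 3.10.9 were used.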

Additional observations from a re-analysis of the deposited data

How the results depend on the processing

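The number of members that rose, 12 in the main test, was within 1.5 times of that with DESeq2, library totals, both other filters, limma on log2(FPKM + 1) and the replicate block. It was 6 with limma on log2(FPKM + 0.1), 5 with the exonic length correction, 2 with the mRNA length correction and 5 on the TPM scale, and between 3 and 16 when each library was left out in turn. The range without a library is not read as a result about the members, as the spread there comes from the remaining pair of the other group. Calls over all tested genes moved the same way. They were fewer than in the main test without a control library and more without an overexpression library. No member fell in the main test, and 1 (TIMM23B) was lower with the mRNA length correction and on the TPM scale. The median log2 fold change of the tested members, 0.71, was 0.50 with library totals, 0.47 and 0.50 with limma at pseudocounts of 1 and 0.1, 0.44 with the exonic length correction, 0.23 with the mRNA length correction and 0.21 on the TPM scale, and between 0.54 and 0.89 without a library. Some of these fits also moved the median of all genes, to -0.20 with library totals and to -0.49 on the TPM scale. With limma at pseudocounts of 1 and 0.1 the median of all genes was -0.17 and -0.21. Of the partners 4 were higher with library totals and with limma at either pseudocount, and 2 with the mRNA length correction and on the TPM scale. Of all tested genes, 10.2% and 9.66% were higher with limma at pseudocounts of 1 and 0.1. The shares higher in the other fits are given above. Partners that fell numbered 2 with library totals, 1 with the mRNA length correction, 2 with the replicate block and 4 on the TPM scale. Over all tested genes, 2963, 337, 2918 and 4516 were lower in these fits, of 12168 tested or of 10571 with the mRNA length correction. The cause of these moves was not tested. The replicate numbers pair the samples in no stated way. The correlation of the deviations of same-numbered libraries was 0.265. With the number as a block 14 members were higher and 0 lower, against 23.3% of all tested genes higher and 2918 of 12168 lower.

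Signs turned for members that were not called in the main test. With library totals, limma at 1, limma at 0.1, the exonic length correction and the TPM scale, the log2 fold change was -0.12, -0.14, -0.14, -0.17 and -0.40 for TOMM20, -0.041, -0.032, -0.0405, -0.13 and -0.33 for TOMM40L, and -0.17, -0.15, -0.17, -0.31 and -0.46 for TIMM10B. TOMM34 was at -0.20, -0.033 and -0.24 with the exonic and mRNA length corrections and the TPM scale, TIMM8A at -0.24 and -0.13 with the mRNA length correction and the TPM scale, TIMM21 at -0.13 and the partner HSPD1 at -0.10 on the TPM scale, and TOMM70 at 0.059 and 0.26 with the 2 length corrections. Without a library the range was -0.15 to 0.27 for TOMM20, -0.24 to 0.082 for TOMM70 and -0.0545 to 0.125 for TIMM10B. In shares of counts the TIMM8A difference was -16.9 percentage points, and without a library it lay between -14.0 and -13.5 points in shares of FPKM.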

Other observations

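Within the overexpression pair, members differed in which library was higher. TIMM17B, TIMM44, TOMM40, TIMM13, TOMM7, TIMM22 and TIMM10 had 1.39 to 1.79 times the FPKM in replicate 2 that they had in replicate 1, and TOMM20, TOMM70, TIMM9 and TIMM8B had 0.699 to 0.792 times. In the control pair the ratio of replicate 2 to replicate 1 ran between 0.80 and 1.16 over the 22 tested members.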
